A study of Mus musculus with 18 samples.

Results

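The cytosolic ribosomal protein genes were followed in mouse peritoneal macrophages before and after lipopolysaccharide (LPS). A gene was included when its symbol in the mouse annotation began with Rpl or Rps and a digit, or was Rpsa, and the gene was protein-coding, with the Rps6k kinase genes left out. This gave 89 genes, of which 64 had a value and 62 were high enough to test, among 13598 genes with a value and 9707 tested genes. No events of the other 25 genes were at hand, among them Rpl10, Rpl12, Rpl13a, Rpl32 and Rps20, and these are not analysed here. The symbol also takes in Rps19bp1, which encodes a protein that binds RPS19, and Rpl7l1, a relative of Rpl7. The P-stalk genes Rplp0, Rplp1 and Rplp2 and the fusion gene Fau lie outside it.

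The macrophages were elicited with thioglycollate and came from wild-type (WT) mice and from TLR4-K730R and TLR4-K810R mice (below K730R and K810R), with the mutants made on a C57BL/6 background. In the mutants, CRISPR/Cas9 knock-in changed the named lysine of the TIR domain of the LPS receptor TLR4 to arginine in the germ line, so that every cell carries the change, which FPKM cannot show. Cells of each genotype received LPS at 100 ng/ml for 6 h or no LPS (called mock here), and each of the 6 groups held 3 bulk RNA-seq libraries. The labels do not say how old the mice were or whether the libraries came from separate mice, so the tests measure the spread between these libraries, which may be technical.

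The cytosolic ribosome is made of a small subunit, with the RPS proteins, and a large subunit, with the RPL proteins, each built on ribosomal RNA. Its proteins are needed in equal numbers, and their mRNAs are among the most abundant of a cell. Most of these mRNAs start with a C followed by a run of pyrimidines, the terminal oligopyrimidine (TOP) motif, through which mTOR signalling and the binding protein LARP1 control their translation and stability. In macrophages, LPS activates the inflammatory programme through TLR4 and changes the translation of many mRNAs.

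To show what these genes share at their starts, the annotated RefSeq starts (GRCm38.p6) were searched. Of the 62 tested genes, 50 had at least 1 window from 250 bases before to 50 bases after a start. A C followed by at least 7 further C or T, on the sense strand and beginning within 10 bases of the start, was found in 19 of the 50 genes (38%), against 9.43% of the 27025 genes with such a window. Those 27025 take in genes without a value in these macrophages, whereas the 50 were all high enough to test. The letters CCGGAAGT, a core bound by ETS factors such as GABP, were found on either strand in 11 of the 50 genes (22%), against 4.31% of those 27025 genes. The same letters stood in 30.8% of 26 ribosome biogenesis genes and 21.4% of 14 other translation genes. The 30 bases around the start follow for the 7 genes with such a run that passed the test after LPS in at least 1 genotype, written 5′ to 3′ with the run in capitals, to show what such a run looks like at these starts. The other 31 of the 50 genes had no run by this search.
Rpl14, chr9:120571502-120571531, plus strand: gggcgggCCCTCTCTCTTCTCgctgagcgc
Rpl15, chr14:18270972-18271001, minus strand: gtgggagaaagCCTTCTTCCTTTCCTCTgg
Rpl28, chr7:4792950-4792979, plus strand: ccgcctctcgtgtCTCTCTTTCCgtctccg
Rpl35, chr2:39005117-39005146, minus strand: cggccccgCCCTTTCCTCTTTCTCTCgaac
Rpl39, chrX:37085208-37085237, minus strand: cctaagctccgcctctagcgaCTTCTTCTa
Rps10, chr17:27635230-27635259, minus strand: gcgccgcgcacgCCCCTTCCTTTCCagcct
Rps26, chr10:128626492-128626521, minus strand: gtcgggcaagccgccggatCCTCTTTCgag

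In Rpl11 and Rpl26 the letters CCGGAAGT fell within the same 30 bases, and there they are the ones in capitals.
Rpl11, chr4:136053379-136053408, minus strand: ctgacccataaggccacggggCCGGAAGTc
Rpl26, chr11:68901551-68901580, plus strand: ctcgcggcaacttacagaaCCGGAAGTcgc
Rps15, which fell after LPS in all 3 genotypes, held neither feature at its annotated start.
Rps15, chr10:80292416-80292445, plus strand: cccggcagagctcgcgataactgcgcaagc
A match is a description of the letters, and annotated starts can lie some bases from the start used in these cells.

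The files hold FPKM, fragments per kilobase of transcript scaled to library size, for transcript events such as first and last exons. For each gene the first-exon values and the last-exon values were added up separately in each library, and the higher of the sums served as its level. FPKM are per length, so levels of different genes can be set side by side, but the level of a gene may be partial where its ends differ, and both ends were within 1.1 times for 44 of the 64 genes. FPKM give no read counts, so that depth stays unknown and counting error cannot be given. A library listed 80071 to 90401 events, and libraries of one group correlated with r of 0.961 to 0.975. The library of LPS-treated K810R replicate 1 stood apart, with the fewest events and 39663 FPKM of the ferritin gene Fth1. The macrophage markers Lyz2, Cd68, Csf1r and Adgre1 were high in every library (at least 5940, 387, 277 and 148 FPKM), whereas Cd14 was listed at a median of 0 FPKM and Itgam had no value. The 5 T cell markers with a value summed to at most 0.958 FPKM. The macrophage list itself summed to less after LPS, with a median of 8210 FPKM against 13600 in WT.

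Ribosomal protein genes were among the most abundant transcripts of these macrophages. Of the 64 genes with a value, 48 had a mean of at least 100 FPKM over the 18 libraries, 12 lay between 10 and 100, and 4 were below 10. The same number, 48, ranked among the 500 highest genes. Among the highest were Rpl8 with a mean of 738 FPKM (the 50th highest of all genes), Rps15 with 605, Rpl41 with 567 and Rps14 with 488. Rpl8, a large-subunit protein close to the peptidyl transferase centre, had 846, 473 and 924 FPKM in the mock-treated WT libraries. The 4 lowest were Rpl22l1 (9.4 FPKM), Rps19bp1 (0.65), Rpl39l (0.503) and Rpl3l (0.087), of which the last 2 were not tested.

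After LPS the summed level of the family was lower in all 3 genotypes. In mock-treated WT macrophages the 64 genes summed to 16350, 15374 and 16954 FPKM, and after LPS to 10297, 10014 and 13377. In K730R they summed to 18731, 18541 and 16765 FPKM with mock treatment and to 10683, 12726 and 9488 after LPS. In K810R the sums were 18062, 17910 and 21524 FPKM with mock treatment and 15003, 13684 and 13940 after LPS. Within each genotype no LPS library reached a mock library. The means differed by 30.8% in WT, from 16226 ± 797 (SD, n = 3) to 11229 ± 1865 FPKM, by 39.1% in K730R, from 18012 ± 1084 to 10965 ± 1637, and by 25.9% in K810R, from 19165 ± 2044 to 14209 ± 699.5.

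**Figure D1:**
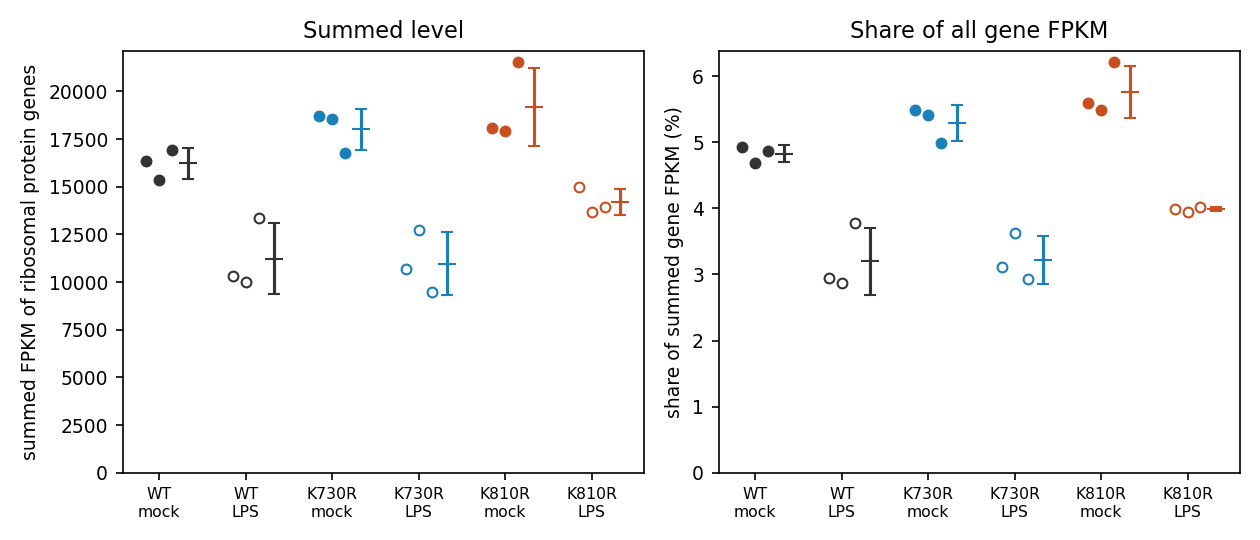
Summed FPKM of the 64 ribosomal protein genes with a value (left) and their share of the summed FPKM of all genes in percent (right), for each library (points, filled for mock and open for LPS) in the 6 groups, with the mean and SD of 3 libraries beside them. The LPS libraries of WT and K730R lie between 9488 and 13377 FPKM, and those of K810R between 13684 and 15003.

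As a share of all gene FPKM, the family made up 4.83% ± 0.129 of mock-treated and 3.20% ± 0.508 of LPS-treated WT libraries (SD, n = 3). The shares were 5.29% ± 0.270 and 3.22% ± 0.360 in K730R, and 5.76% ± 0.392 and 3.99% ± 0.0356 in K810R. In these bulk samples less RNA per cell and fewer cells of a type cannot be told apart. The lower sums were shared by both subunits. The small-subunit sum was 34.0%, 39.4% and 25.9% lower after LPS in WT, K730R and K810R, and the large-subunit sum 27.2%, 38.8% and 25.9% lower. By summed FPKM, the order of the 6 groups ran from mock-treated K810R down to LPS-treated K730R. Neighbours in this order overlapped, except that all LPS-treated K810R libraries lay below all mock-treated WT libraries and above all LPS-treated WT libraries. By share the lowest mean was that of LPS-treated WT, and all mock-treated K730R libraries (at least 4.985%) lay above all mock-treated WT libraries (at most 4.93%).

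The size of this difference depended on what the libraries were scaled to. FPKM of most genes were lower after LPS: the median log2 difference of all tested genes was -0.28 in WT, -0.36 in K730R and -0.26 in K810R. With median-of-ratios scaling, which centres these medians near 0 (-0.04, -0.09 and -0.07), the family sums were 14837 ± 924 and 12537 ± 1422 in WT, 16282 ± 779 and 12634 ± 1456 in K730R, and 16621 ± 1035 and 14478 ± 680 in K810R. On that scale 1 LPS library of WT (14177) reached above the lowest mock library (13833), and the treatments did not overlap in the mutants. Relative to all tested genes, the median ribosomal protein gene was lower by 0.21, 0.32 and 0.11 on the log2 scale as deposited in the 3 genotypes, and by 0.15, 0.24 and 0.06 after that scaling.

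Single genes were tested with limma on log2(FPKM + 1), with all 6 groups in one fit and adjustment over all 9707 genes. A gene was called when its adjusted p was below 0.01. In WT, 20 of the 62 genes were called lower after LPS and 0 higher, which is 32.3% against 23.9% of all tested genes called lower and 10.4% called higher. At an adjusted p below 0.05 the count was 31 (47.4% of all tested genes in either direction). In K730R, 29 of 62 were called lower (46.8% against 26.5% of all genes) and 0 higher (9.32% of all genes). In K810R, 14 of 62 were called lower (22.6% against 19.7%) and 0 higher (9.08% of all genes). With median-of-ratios scaling the calls dropped to 5, 12 and 3 genes, all lower and all among those called before. These were 8.06%, 19.4% and 4.84% of the 62, against 14.9%, 15.1% and 12.7% of all tested genes called lower on that scale, so that the share of the family lay above that of all genes in K730R and below it in WT and K810R. Over 24 alternative fits it lay below that of all genes in 16 in K810R, 8 in WT and 1 in K730R. Among the 62 genes, 57, 58 and 56 had a negative difference, against 67.0%, 72.2% and 68.9% of all tested genes. The median difference was -0.49 in WT, -0.68 in K730R and -0.37 in K810R.

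**Figure D2:**
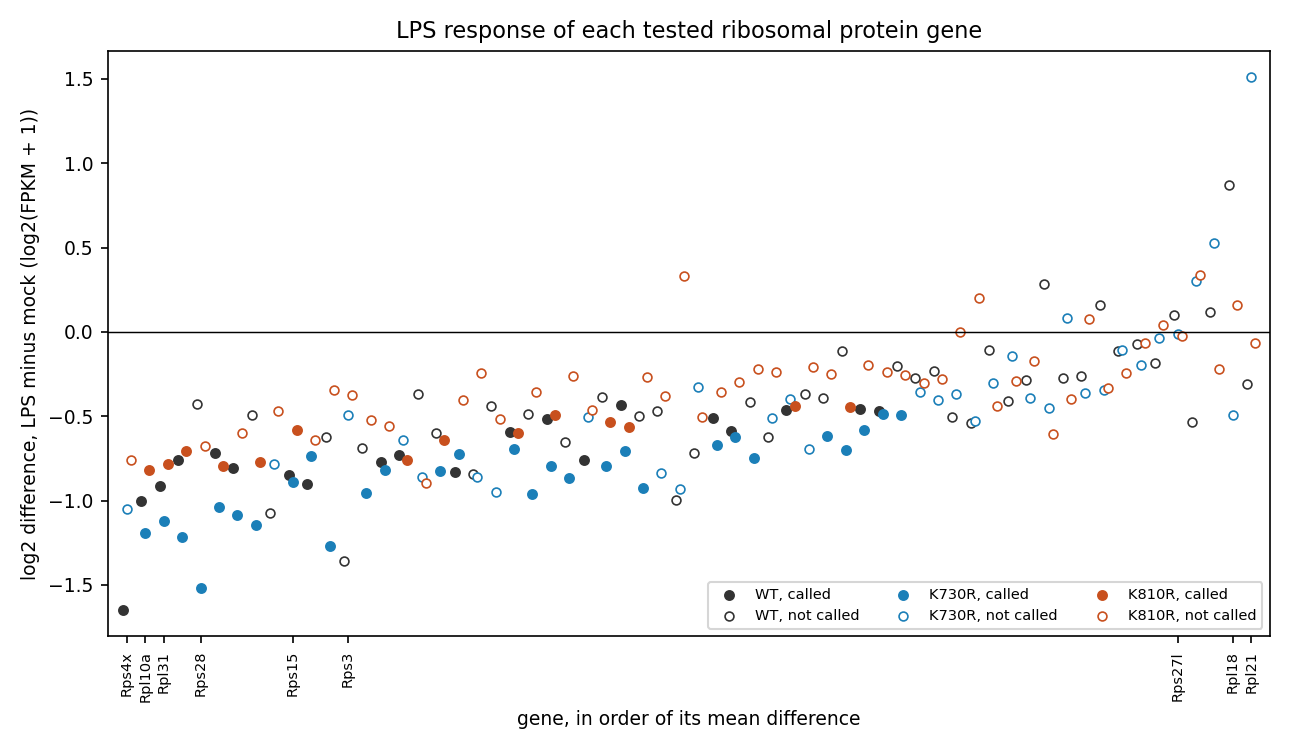
Log2 difference between LPS and mock treatment, on the log2(FPKM + 1) scale, for each of the 62 tested genes in WT, K730R and K810R, ordered by the mean of the 3, with 9 genes labelled. Filled points were called (adjusted p below 0.01, limma). All filled points, 20, 29 and 14 of them, lie below 0.

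All 3 LPS libraries lay below all 3 mock libraries for 35 genes in WT (39.5% of all tested genes did so), 43 in K730R (45.0%) and 30 in K810R (37.9%), and for 24 genes in every genotype (24.7% of all tested genes did so). The groups separated in the other direction for 0 of the 62 genes in each genotype (15.5%, 13.8% and 14.6% of all tested genes). A call in all 3 genotypes was made for 8 genes, which is 12.9% of the 62 against 15.1% of all tested genes called lower in all 3. These were Rpl10a, Rpl11, Rpl28, Rpl31, Rps3a1, Rps7, Rps15 and Rps21. A further 14 genes were called in 2 genotypes, 11 in 1 and 29 in 0. These were 22.6%, 17.7% and 46.8% of the 62, against 7.39%, 9.94% and 67.6% of all tested genes. A negative difference in all 3 genotypes was found for 50 of the 62 and for 55.7% of all tested genes.

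Rpl10a (ENSMUSG00000037805; chromosome 17, 28328471 to 28331033 in GRCm38), which encodes the uL1 protein of the L1 stalk, had the lowest difference among the called large-subunit genes of each genotype. It had 486, 392 and 549 FPKM in mock-treated WT libraries and 217, 182 and 327 after LPS. In K730R it went from 572, 580 and 488 to 229, 305 and 192 FPKM, and in K810R from 548, 528 and 710 to 358, 313 and 333. The mock and LPS libraries did not overlap in any genotype. The log2 difference was -1.003 ± 0.21 (SE; adjusted p = 0.000931, limma) in WT, -1.19 ± 0.21 (adjusted p = 0.000200) in K730R and -0.82 ± 0.21 (adjusted p = 0.00496) in K810R. Its last exon is hardly listed (a mean of 0.0375 FPKM), so the level rests on its first exons, as do those of Rps7 and Rpl8. The K810R call was lost in 5 of the 6 fits that left out 1 library.

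Rpl31 (ENSMUSG00000073702; chromosome 1, 39367842 to 39371911), a protein at the rim of the peptide exit tunnel, fell in all 3 genotypes. Its levels in WT were 407, 381 and 425 FPKM with mock treatment and 195, 200 and 250 after LPS. In K730R they were 488, 450 and 415 against 190.5, 246 and 187 FPKM, and in K810R 439, 432 and 546 against 304, 252.5 and 262. Both ends of the gene gave the same level within 1.1 times. The log2 differences were -0.91, -1.12 and -0.79 with an SE of 0.14 (adjusted p of 5.17e-05, 5.9e-06 and 0.000261, limma), and the calls held in every fit that left out 1 library. Rpl31 was also called in all 3 genotypes with median-of-ratios scaling.

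Rps15 (ENSMUSG00000063457; chromosome 10, 80292453 to 80294114), a head protein of the small subunit, had 686, 617 and 786 FPKM in mock-treated WT libraries and 348, 340 and 479 after LPS. It went from 717, 800.0 and 756 to 379, 479 and 373 FPKM in K730R, and from 847, 786 and 840.1 to 595, 533 and 522 in K810R. The groups did not overlap, and the log2 differences were -0.85, -0.89 and -0.58 (adjusted p of 0.000128, 7.83e-05 and 0.00343, limma), and the call in K810R was lost in 4 of 6 fits without 1 library. Rpsa, a ribosomal protein of the small-subunit head that is also called the laminin receptor, fell in WT from 436, 389 and 453 to 208, 189.8 and 297 FPKM (log2 difference -0.90 ± 0.19, adjusted p = 0.000950). In K730R Rpsa was also called (-0.74, lost in 4 of 6 fits without 1 library), and in K810R it was not (-0.64, adjusted p = 0.0120), although its libraries of 491, 496 and 513 FPKM with mock treatment and 329, 314 and 316 after LPS stood well apart.

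Rps4x (ENSMUSG00000031320; chromosome X, 102184941 to 102189394), the X-linked copy of the small-subunit protein eS4, showed the lowest difference of any member in WT. It had 471.5, 478 and 437 FPKM with mock treatment and 101, 268 and 117 after LPS, so that 1 LPS library was above the other 2 by more than 2 times. The log2 difference was -1.65 ± 0.31 (adjusted p = 0.000398, limma) and ranged from -2.08 to -1.38 when 1 library was left out. In K730R it was -1.05 (adjusted p = 0.0106; -0.69 without LPS replicate 3), with 477, 511 and 395 FPKM against 259.8, 310.1 and 134, and in K810R -0.76 (adjusted p = 0.0613), with 544, 541 and 568 against 344, 284 and 352.

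**Figure D3:**
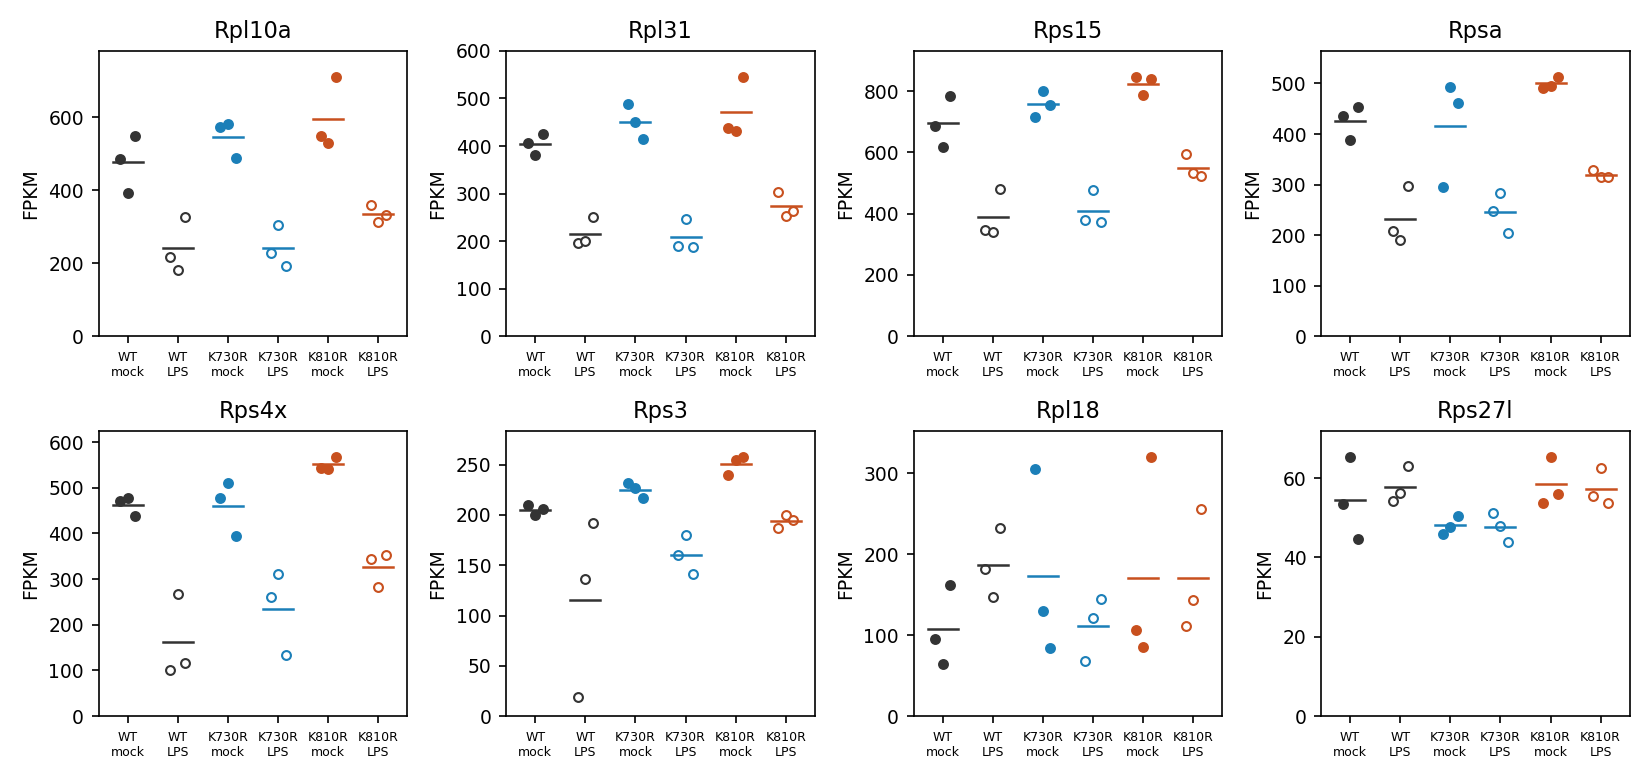
FPKM of 8 ribosomal protein genes in each library (points, filled for mock and open for LPS) with the group mean (line), on linear axes from 0. Rpl10a, Rpl31, Rps15 and Rpsa separate by treatment, Rps3 has 1 LPS library of WT at 18.6 FPKM, Rpl18 spreads widely within groups, and Rps27l shows overlapping treatments.

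The 3 lowest differences in K730R were those of small-subunit genes. Rps28, which encodes one of the shortest small-subunit proteins, went from 172, 155 and 129.9 FPKM to 44.0, 70.8 and 45.5, a log2 difference of -1.52 ± 0.29 (adjusted p = 0.000407, limma). In WT the same gene had 71.6, 87.4 and 121 FPKM with mock treatment and 59.5, 60.9 and 84.7 after LPS, and its groups overlapped. Rps29, a zinc-binding protein of the small-subunit head, went from 895, 715 and 492 to 233, 351 and 273 FPKM in K730R (-1.27 ± 0.32, adjusted p = 0.00378), a call that was lost in 4 of 6 fits without 1 library. Rps21 went from 417, 293 and 274 to 135, 149 and 132 FPKM (-1.21 ± 0.18, adjusted p = 3.41e-05) and kept its call in all fits run. Rpl30, a large-subunit protein at a bridge between the subunits, went from 234, 256 and 190 to 97.3, 122 and 87.2 FPKM (-1.15 ± 0.16, adjusted p = 2.53e-05). The mock-treated replicate 1 was the highest library for Rps21, Rps28 and Rps29.

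In K810R the 5 lowest differences among called genes were those of Rpl10a, Rps7, Rpl31, Rpl30 and Rps10, between -0.82 and -0.76. Rps7, which helps small-subunit assembly and can bind MDM2, went from 124.5, 136.5 and 189 to 91.3, 91.4 and 72.9 FPKM (-0.79 ± 0.16, adjusted p = 0.00107, limma). Rps10, at the mRNA entry side of the small subunit, went from 446, 478.5 and 510.2 to 279, 287 and 279 FPKM (-0.76 ± 0.19, adjusted p = 0.00489). The call was lost in 5 of 6 fits without 1 library, and with first-exon FPKM alone the difference turned to 0.36. Rpl30 went from 221, 203 and 248 to 162, 119 and 115 FPKM (-0.77 ± 0.16, adjusted p = 0.00118).

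Many calls were lost when 1 library was left out, a step that also leaves fewer libraries for the test. In these fits the log2 differences in K810R lay between -0.90 and -0.69 for Rpl10a, -0.81 and -0.71 for Rps10 and -0.70 and -0.54 for Rpl3. Of the 20 genes called in WT, 8 stayed called whichever of its 6 libraries was left out: Rpl10a, Rpl31, Rpl36, Rps2, Rps4x, Rps15, Rps16 and Rpsa. In K730R 20 of 29 did so, among them Rpl10a, Rpl11, Rpl30, Rpl31, Rps15, Rps21 and Rps28, and in K810R 4 of 14, namely Rpl30, Rpl31, Rps3a1 and Rps7. In WT the count was 9 to 12 when any 1 library other than LPS replicate 3 was left out (9 without LPS replicate 2, 11 without LPS replicate 1 and 11, 12 and 11 without mock replicates 1, 2 and 3), and 25 without LPS replicate 3. The shares were then 14.5% to 19.4% of the 62 genes, in each of these 5 fits below the 18.6% to 20.3% of all tested genes, and 40.3% against 23.9% without LPS replicate 3. In K810R it was 4 without LPS replicate 3, 5 without mock replicate 3, 6 without LPS replicate 2, 8 without LPS replicate 1 or mock replicate 2 and 10 without mock replicate 1. These were 6.45% to 16.1% of the 62 genes, below the share of all tested genes (15.5% to 17.3%) in each of the 6 fits. In K730R the share of 33.9% to 51.6% lay above that of all tested genes (21.1% to 23.5%) in all 6. The libraries left out also differed across the whole family. LPS replicate 3 of WT was the highest of its group for 47 of the 62 genes, LPS replicate 2 of K730R for 46 and mock replicate 3 of K810R for 42.

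Some of the highest or best-known members did not pass the test. Rps6, the substrate of the S6 kinases, had log2 differences of -0.27, -0.35 and -0.31 and adjusted p of at least 0.349 (limma). Without 1 library these lay between -0.37 and -0.09 in WT, -0.52 and -0.04 in K730R and -0.70 and -0.07 in K810R. Rpl8 had differences of -0.47, -0.84 and -0.38 with an adjusted p of 0.0115 in K730R. Its value was -0.77 without mock replicate 2 of WT and -0.54 without LPS replicate 3 of K730R. Rps14 had differences of -0.44, -0.95 and -0.52 and 1 mock library of K810R at 1102 FPKM beside 540.2 and 366, without which the K810R difference was -0.08, and the WT difference was -0.75 without LPS replicate 3. Rpl41, the shortest ribosomal protein, was called in K730R (681, 734 and 579 against 368, 464.5 and 356 FPKM, -0.75 ± 0.17, adjusted p = 0.00179) and in no other genotype. Rps19, mutated in Diamond-Blackfan anaemia, had differences of -0.62, -0.51 and -0.24 and was not called, and in K810R it stood at 0.06 without LPS replicate 3.

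Rpl5 and Rpl11, which join 5S ribosomal RNA in a particle that can bind MDM2, were both called lower in WT. Rpl11 had 189, 177 and 187 FPKM in mock-treated WT libraries and 113, 117 and 161 after LPS (-0.51 ± 0.14, adjusted p = 0.00660, limma), a call lost in 5 of 6 fits without 1 library. It was called in K730R (-0.79, adjusted p = 0.000217) and in K810R (-0.50, adjusted p = 0.00973), where 5 of 6 such fits again lost the call. With first-exon FPKM alone the difference of Rpl11 turned to 1.42 in WT and 0.0151 in K810R. Rpl5 went from 155, 111 and 105 to 72.4, 59.0 and 86.1 FPKM in WT (-0.76 ± 0.18, adjusted p = 0.00307) and missed the threshold in K730R (-0.50, adjusted p = 0.0327) and K810R (-0.46, adjusted p = 0.0551).

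Paralogs can carry different forms of a protein into the ribosome, and near-identical copies can share reads, so their levels are uncertain. Rps27 and Rps27l encode alternative forms of one small-subunit protein. Rps27l had 53.4, 65.3 and 44.6 FPKM in mock-treated and 54.2, 56.1 and 63.1 in LPS-treated WT libraries, with overlap in every genotype (0.10, -0.02 and -0.03), and Rps27 had differences of -0.10, -0.30 and -0.44. Without 1 library Rps27 lay between -0.23 and 0.08 in WT, -0.44 and -0.17 in K730R and -0.51 and -0.38 in K810R. Rps27l changed sign in each genotype. Rpl22, a large-subunit protein, had 49.8 ± 4.47 FPKM in the WT mock libraries (SD, n = 3) and its paralog Rpl22l1 7.54 ± 2.19. Rpl22 was called lower in K730R (43.5, 49.0 and 56.5 against 34.8, 34.6 and 35.0 FPKM, -0.49 ± 0.13, adjusted p = 0.00526, limma), a call lost in 5 of 6 fits without 1 library, and Rpl22l1 had differences of 0.16, -0.35 and -0.33 without a call. Without 1 library Rpl22l1 lay between -0.08 and 0.28 in WT, -0.52 and -0.15 in K730R and -0.44 and -0.15 in K810R. Rpl39, in the exit tunnel, was called in K730R (-0.80) and in K810R (-0.54, lost in 5 of 6 such fits), while Rpl39l stayed at or below 1.17 FPKM in every library. Rpl3, which lines the approach to the catalytic centre, was called in the same 2 genotypes (-0.82 and -0.64, the latter lost in all 6 such fits), and its muscle paralog Rpl3l was listed above 0 in 3 mock libraries, with at most 0.629 FPKM. Rpl7 and Rpl7l1 were not called, with differences of 0.28, -0.45 and -0.61 for the first and 0.12, 0.53 and -0.22 for the second. Without 1 library Rpl7 lay between 0.19 and 0.44 in WT and -0.61 and -0.23 in K730R. Rpl7l1 lay between -0.25 and 0.34 in WT, 0.31 and 0.73 in K730R and -0.45 and 0.03 in K810R. Rpl36a had -0.54, -0.53 and 0.20 without a call, with -0.91 to -0.06 in WT, -0.82 to -0.28 in K730R and -0.27 to 0.59 in K810R when 1 library was left out.

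A few members had positive differences, and none of them was called. Rpl18 in WT had 95.1, 64.4 and 162 FPKM with mock treatment and 181, 147 and 232 after LPS (0.87 ± 0.53, adjusted p = 0.186, limma). Its spread was wide in every group, reaching 85.3 to 321 FPKM in mock-treated K810R, and its leading first exon held 0.12% to 99.85% of its first-exon FPKM depending on the library. Rpl21 in K730R had 0.200, 19.1 and 31.5 FPKM with mock treatment and 26.7, 27.2 and 22.03 after LPS, so its difference of 1.51 rested on mock replicate 1. Rps3, a small-subunit protein at the mRNA entry that also acts in DNA repair and NF-κB complexes, had 210.0, 200.2 and 206 FPKM in mock-treated WT libraries but 18.6, 137 and 192 after LPS. Its difference of -1.36 (adjusted p = 0.0470) became -0.34 without LPS replicate 1. In the other genotypes Rps3 was 232, 227 and 217 against 160.1, 179.6 and 142 FPKM, and 240.2, 254 and 258 against 187, 199.6 and 195, which separated by treatment without a call.

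The spread within groups was read from the pooled SD of log2(FPKM + 1). Its median was 0.24 for the 62 genes and 0.26 for all tested genes, but among genes with a mean of at least 40 FPKM it was 0.24 for 58 ribosomal protein genes against 0.21 for all 1204 genes. For 9 members it was above 0.5, led by Rpl21 (1.11), Rps3 (0.73), Rpl18 (0.72), Rpl29 (0.69) and Rpl23 (0.60), and 19 members had a group in which the libraries differed by more than 1 on the log2 scale.

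Libraries also differed in which first exon of a gene was listed. Rps24 (ENSMUSG00000025290; chromosome 14, 24487125 to 24496959) encodes a small-subunit protein. Its leading first exon, 3556 bases from the annotated gene start, had 69.6 to 107 FPKM in 14 libraries. In 4 libraries, mock-treated K730R replicates 1 and 2, mock-treated K810R replicate 3 and LPS-treated K810R replicate 1, it had 40.7, 41.3, 32.4 and 29.9 FPKM. In these 4 the first exon at 3734 bases had 23.2, 24.6, 54.4 and 41.9 FPKM against at most 7.95 elsewhere, and that at 4024 bases had 15.04, 4.97, 16.3 and 14.7 against at most 0.035. Summed over its first exons, which gave the level used here, Rps24 had 84.8, 77.2, 110.9 and 92.9 FPKM in these libraries and 78.1 to 122 in the others. On that level its differences after LPS were -0.11, -0.11 and -0.24 without a call. Its last exon had 39.1, 41.0, 30.8 and 29.3 FPKM in the same 4 libraries and 67.8 to 103 in the others. The ends of the gene thus did not give the same level in these 4. The 4 libraries came from both mutants and from both treatments, and none was WT.

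**Figure D4:**
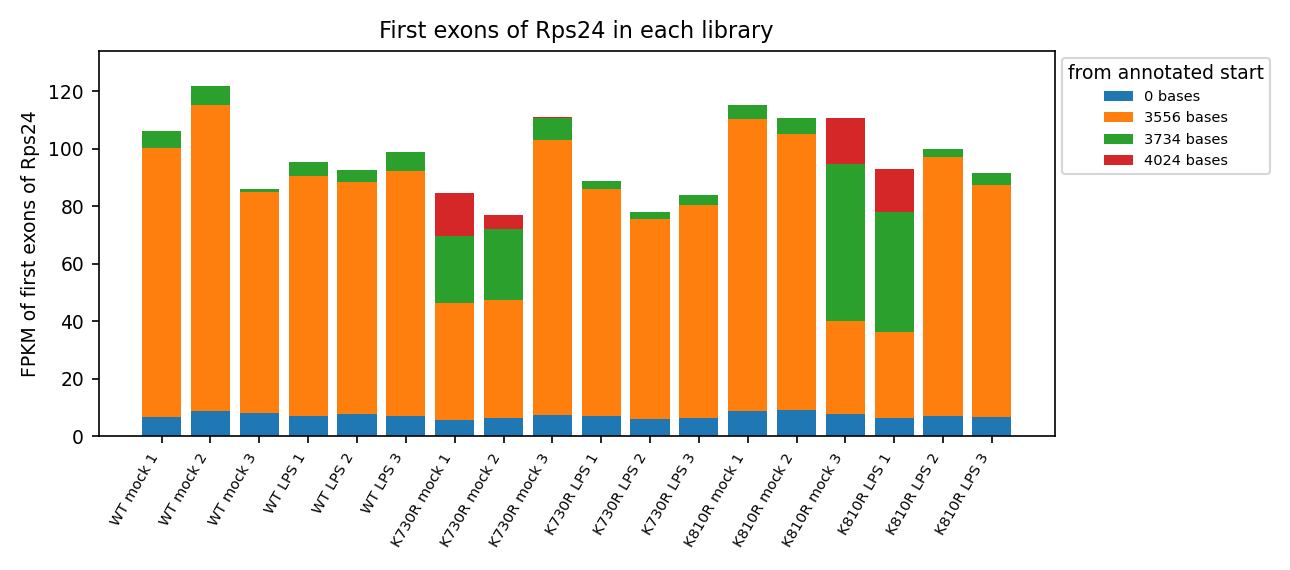
FPKM of the first exons of Rps24 in each of the 18 libraries, stacked by the distance of the exon from the annotated gene start in bases. In 4 libraries the exon at 3556 bases drops to 29.9 to 41.3 FPKM and the exons at 3734 and 4024 bases are higher than elsewhere.

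In mock-treated cells, limma called 0 of the 62 genes for K730R against WT (0.268% of all tested genes) and 0 for K810R against WT (1.58%). At an unadjusted p below 0.05 there were 4 for K730R, all higher (3.84% of all tested genes were higher and 3.85% lower), and 7 for K810R, all higher (9.45% and 4.63%). At an adjusted p below 0.05 there were 2 for K810R, Rpl6 and Rpl7 (3.52% of all tested genes). In mock-treated K810R, 55 of the 62 differences were positive, against 60.4% of all tested genes, with a median of 0.23 against 0.07. Without mock replicate 3 of K810R 47 were positive and the median was 0.15 against 0.03. For K730R the count at an unadjusted p below 0.05 was 1 without mock replicate 1 of K730R and 9 without its mock replicate 3. The shares of all tested genes in those fits are not given here, so these counts are not read as a result about the family. The family sums of mock-treated K810R and WT did not overlap, at 17910 to 21524 against 15374 to 16954 FPKM, nor did they with median-of-ratios scaling (15873 to 17802 against 13833 to 15652). Rpl7, a large-subunit protein, had 336, 310 and 204.5 FPKM in K810R, 176, 269 and 181 in K730R and 131, 114 and 147 in WT. Its difference was 1.09 ± 0.24 in K810R (adjusted p = 0.0163, limma) and 0.65 ± 0.24 in K730R (adjusted p = 0.484). Rpl6 had 239, 264 and 275 FPKM in K810R against 172, 191.5 and 167 in WT (0.55 ± 0.12, adjusted p = 0.0139), and it had 242, 194.5 and 218 in K730R. Both comparisons share the WT libraries.

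The other members at the ends of these comparisons were not called. In K730R without LPS these were Rps28 (0.73) and Rpl18 (0.58) at the upper end and Rpl21 (-1.63), Rps25 (-0.47) and Rps19bp1 (-0.46) at the lower end, and without mock replicate 1 of K730R Rpl21 stood at -0.16 and Rpl18 at 0.07. Rps19bp1 stood at -0.16 without mock replicate 3 of WT. In K810R they were Rpl22l1 (0.74), Rpl23 (0.59), Rps15a (-0.43), Rpl36a (-0.37) and Rps9 (-0.30). Rps9 had 343.5, 675 and 349 FPKM in the mock-treated WT libraries, the second of which stood apart, and its difference was 0.02 without that library. Without 1 library Rpl23 stood at 0.14 (WT mock replicate 1), Rps15a at -0.12 (K810R mock replicate 1) and Rpl36a at -0.08 (K810R mock replicate 2).

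In LPS-treated cells, limma called 0 of the 62 genes for K730R against WT (0.0% of all tested genes). At an unadjusted p below 0.05 there were 4 lower (5.36% of all tested genes) and 0 higher (2.33%), and the median difference was -0.04. The count was 1 without LPS replicate 1 of K730R, 2 and 7 without LPS replicates 1 and 3 of WT, and 10 with library weights. The shares of all tested genes in these fits are not given here, so these counts are not read as a result about the family. The genes furthest from 0 were Rps3 (0.998), Rps27a (0.73), Rps4x (0.59), Rpl18 (-0.79), Rps25 (-0.58) and Rpl39 (-0.38), and Rps3 stood at -0.02 without LPS replicate 1 of WT. Leaving out 1 library gave 0.33 to 1.25 for Rps27a, 0.32 to 1.02 for Rps4x, -1.005 to -0.47 for Rpl18, -0.76 to -0.41 for Rps25 and -0.49 to -0.22 for Rpl39, and it moved the median of the 62 genes between -0.17 and 0.04. For K810R against WT 0 were called (0.134%), 1 had an adjusted p below 0.05 (2.19%), 20 were higher at an unadjusted p below 0.05, which is 32.3% against 15.2% of all tested genes, and 0 were lower (6.67%). Without LPS replicate 1 or 2 of WT this count was 6 of 62 (9.68%), against 14.9% and 13.6% of all tested genes in either direction. It was 10 without LPS replicate 1 of K810R, given without the share of all tested genes. Of the 62 differences 56 were positive (63.2% of all tested genes), with a median of 0.32 against 0.11. With median-of-ratios scaling 8 genes had an unadjusted p below 0.05 (12.9%, below the 19.4% of all tested genes in either direction), 50 were positive, and the median was 0.18 against a median near 0 for all tested genes. The family sums, separate as deposited, overlapped on that scale (13910 to 15231 against 11658 to 14177).

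Rps2, a protein of the mRNA tunnel of the small subunit, had the lowest adjusted p of the family in this comparison. It had 375, 383 and 375.0 FPKM in LPS-treated K810R and 213, 212 and 298 in LPS-treated WT, without overlap (0.66 ± 0.16, adjusted p = 0.0415, limma). Rps4x had 344, 284 and 352 FPKM against 101, 268 and 117 (1.14 ± 0.31, adjusted p = 0.0587), and Rps15 595, 533 and 522 against 348, 340 and 479 (0.52 ± 0.14, adjusted p = 0.0604). All LPS libraries of K810R lay above those of WT for 15 of the 62 genes (17.4% of all tested genes) and below them for 0 (7.89%). Rps3 (1.27) and Rps18 (0.99) were further from 0 but overlapped. Without LPS replicate 1 of WT, Rps3 stood at 0.25, and without LPS replicate 2 Rps18 stood at 0.52. At the lower end were Rpl7l1 (-0.26), Rpl18 (-0.20) and Rps27 (-0.02). Without 1 library Rpl7l1 stood at -0.01 (LPS replicate 1 of K810R), Rps27 at -0.21 (LPS replicate 3 of WT) and Rpl18 between -0.54 and 0.06.

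The difference of the LPS responses was tested as an interaction. In limma 0 of the 62 genes were called for K730R minus WT (0.0412% of all tested genes) and 0 for K810R minus WT (0.124%). At an unadjusted p below 0.05 there were 5 lower for K730R (Rpl6, Rpl7, Rpl30, Rpl39 and Rps28; 4.75% of all tested genes) and 0 higher (2.27%). For K810R there were 1 higher, Rps15a (6.91%), and 1 lower, Rpl7 (6.24%). Without 1 library the counts were 3 to 9 for K730R and 1 to 10 for K810R, the 10 without LPS replicate 3 of WT. These ranges are given without the share of all tested genes in the same fits. Rps28 had an interaction of -1.09 ± 0.40 (adjusted p = 0.603) and Rpl6 of -0.58 ± 0.17 (adjusted p = 0.453) in K730R. Rpl7 had -0.73 ± 0.34 (adjusted p = 0.690) in K730R and -0.89 ± 0.34 (adjusted p = 0.273) in K810R. Other members at the ends were Rpl21 (1.82), Rps3 (0.86), Rps19bp1 (0.84) and Rpl18 (-1.36) for K730R, and Rps15a (1.33), Rps3 (0.99), Rps4x (0.89), Rpl18 (-0.72) and Rpl26 (-0.52) for K810R. Rps15a had 138.5 FPKM in LPS-treated K810R replicate 1 beside 44.4 and 45.9, and its interaction was 0.80 without that library. Rpl21 stood at 0.35 without mock replicate 1 of K730R, and Rps3 at -0.16 and -0.03 without LPS replicate 1 of WT. For K730R, Rpl18 stood at -0.85 without mock replicate 1 of K730R and Rps19bp1 at 0.54 without mock replicate 3 of WT. For K810R, Rpl18 stood at -0.14 without mock replicate 3 of K810R and Rpl26 at -0.23 without mock replicate 2 of WT, while Rps4x ranged from 0.62 to 1.32 when 1 library was left out. The different number of calls in the 3 genotypes is thus not shown to be a different response of any member.

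**Figure D5:**
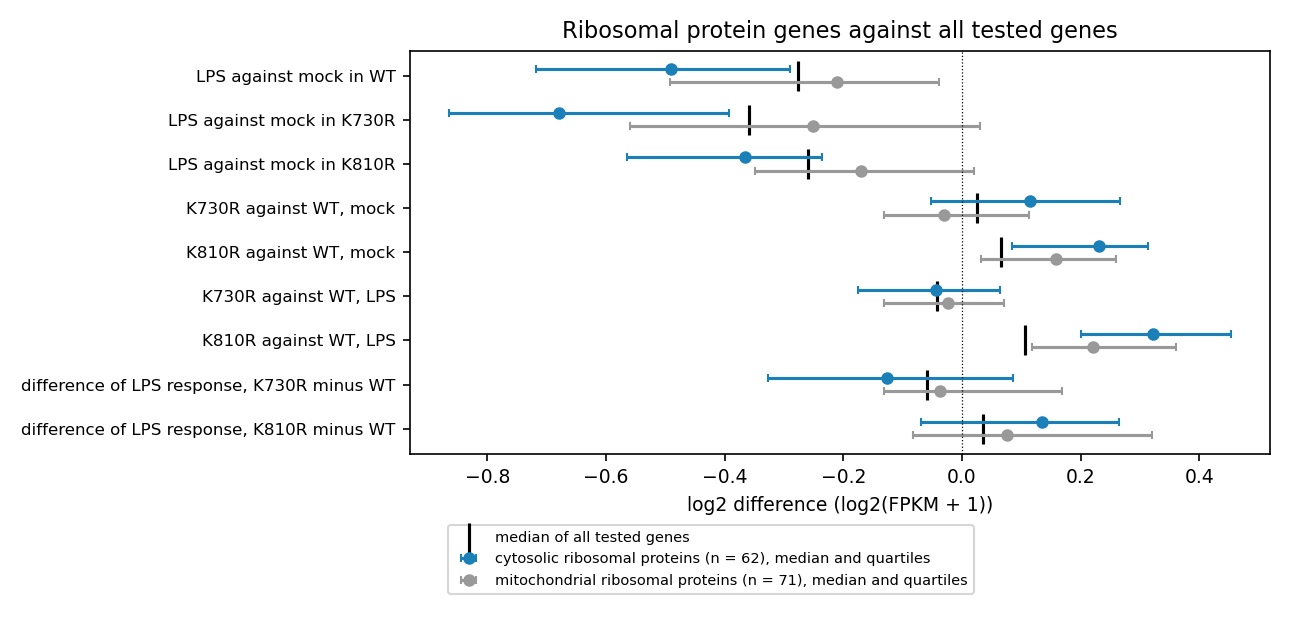
Median and quartiles of the log2 difference (log2(FPKM + 1) scale) of the 62 cytosolic and the 71 mitochondrial ribosomal protein genes in each comparison, with the median of all tested genes as a black tick. After LPS the cytosolic genes lie to the left of the tick (-0.49, -0.68 and -0.37) and the mitochondrial genes to its right (-0.21, -0.25 and -0.17).

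The proteins of the mitochondrial ribosome are encoded by nuclear genes too, and give a second ribosome to set beside the cytosolic one. Of 71 tested genes, 13 were called lower and 3 higher after LPS in WT, 12 and 2 in K730R and 6 and 3 in K810R (limma). The lower calls were 18.3%, 16.9% and 8.45% of the list, below the 23.9%, 26.5% and 19.7% of all tested genes. Their medians were -0.21, -0.25 and -0.17, nearer to 0 than the medians of all tested genes. Of the ribosomal proteins outside the symbol rule, all 5 tested had negative differences in every genotype. Their medians were -0.72, -0.81 and -0.41, against -0.49, -0.68 and -0.37 for the family. In WT, K730R and K810R 2, 4 and 1 of them were called lower (40%, 80% and 20%, against 23.9%, 26.5% and 19.7% of all tested genes). The stalk genes Rplp0, Rplp1 and Rplp2 had -1.07, -0.69 and -0.56 in WT without a call, and Rack1, a scaffold on the small subunit, was called there (-0.76). Fau, a ubiquitin-like fusion that yields the small-subunit protein eS30, was called in all 3 genotypes (-0.72, -1.01 and -0.63) and went from 421, 392 and 521 to 253, 257 and 297.5 FPKM in WT.

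Other translation genes known for TOP control were listed from general knowledge, and 3 of the 14 with a window (21.4%) held the pyrimidine run by the search above. Of 16 tested, 6, 8 and 3 were called lower after LPS in WT, K730R and K810R (37.5%, 50% and 18.8%, against 23.9%, 26.5% and 19.7% of all tested genes), and 0 higher, with medians of -0.55, -0.65 and -0.46. The elongation factor gene Eef1a1 was called in all 3 genotypes (-0.56, -0.70 and -0.72), with 3019, 3047 and 2453 FPKM in mock-treated and 1764, 1661 and 2409 in LPS-treated WT. Eef2, which moves the ribosome along the mRNA, went from 462.5, 378 and 488 to 174, 171 and 270.5 FPKM in WT (-1.13), was called in K730R (-1.13) and missed the threshold in K810R (-0.68, adjusted p = 0.0104). The initiation factor subunits Eif3f and Eif3k were called in all 3 genotypes. Of 21 other initiation factor genes tested, 1 was called lower in WT and K730R (Eif3a in both) and 0 in K810R. These were 4.76%, 4.76% and 0% of the list, below the 23.9%, 26.5% and 19.7% of all tested genes. Higher calls were 0 in each genotype, against 10.4%, 9.32% and 9.08% of all tested genes.

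Among 16 tested genes that control ribosomal protein synthesis, 2 were called higher and 5 lower after LPS in WT and in K730R, and 2 and 2 in K810R. The lower calls were 31.2%, 31.2% and 12.5% of the list and the higher calls 12.5% in each genotype, against 23.9%, 26.5% and 19.7% lower and 10.4%, 9.32% and 9.08% higher among all tested genes. Larp1, which binds TOP mRNAs, rose in all 3 genotypes (0.95, 1.11 and 0.96) and had 22.9, 23.4 and 21.9 FPKM in mock-treated and 39.5, 48.5 and 47.5 in LPS-treated WT. Ddit4, an inhibitor of mTORC1, rose as well (1.79, 1.30 and 1.25). Eif4ebp2, a repressor of cap-dependent initiation, fell (-1.43, -1.68 and -1.37), and so did Tsc1, a part of the complex that restrains mTORC1 (-1.37, -1.12 and -1.30). Myc, which drives ribosome production, was called lower in WT (-0.82) and K730R (-0.84) and had -0.57 in K810R (adjusted p = 0.0623, limma).

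Of 28 tested ribosome biogenesis genes, 5 were called lower in WT, namely Wdr12 (-1.06), Polr1a, the largest subunit of RNA polymerase I (-1.03), Rrp12 (-0.91), Nhp2 (-0.77) and Nob1 (-0.69). In K730R 4 were called lower and in K810R 0 lower and 1 higher, Bop1 (0.77). These lower calls were 17.9%, 14.3% and 0% of the list in WT, K730R and K810R, below the 23.9%, 26.5% and 19.7% of all tested genes. The higher calls were 0%, 0% and 3.57% of the list, against 10.4%, 9.32% and 9.08% of all tested genes. With LPS, all 28 differences of K810R against WT were positive on the scale as deposited (63.2% of all tested genes were). The median was 0.60 against 0.11 for all tested genes, and 0 were called (0.134% of all tested genes). Whether this held without 1 library or with other scaling was not tested. Nob1, an endonuclease of small-subunit maturation, had the lowest adjusted p of this list (0.99 ± 0.17, adjusted p = 0.0169, limma).

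Members with and without the pyrimidine run at their start were set side by side after LPS. The 19 genes with a run had median differences of -0.39, -0.49 and -0.28 in WT, K730R and K810R, and the 31 without one -0.54, -0.74 and -0.41. Negative differences were seen in 17, 19 and 16 of the 19 and in 29, 28 and 28 of the 31.

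Markers of other cells moved with the groups too. The 6 neutrophil markers summed to 61.1 to 82.7 FPKM in mock-treated and 204 to 281 in LPS-treated libraries, where S100a8 (up to 239 FPKM) and Csf3r gave most of the sum and Cxcr2 and Mpo stayed at or below 0.61. The 9 intestinal epithelium markers summed to 0.118 to 0.67 FPKM in mock-treated WT and to 44.1 to 117 in the mock-treated mutants, and after LPS to 0.0928 to 14.8, 51.0 to 58.5 and 0.127 to 20.4 in WT, K730R and K810R. The 7 mesothelial or fibroblast markers summed to 31.3 to 48.2 FPKM in mock-treated WT, to 59.5 to 68.2 in mock-treated K730R and to 113 to 274 in mock-treated K810R. After LPS they summed to 42.7 to 141 in WT, 47.3 to 47.7 in K730R and 101 to 121 in K810R. The 4 B cell markers with a value summed to at most 3.66 FPKM and mast cell, eosinophil, erythroid and dendritic cell lists to at most 5.76. The part of these cells in the levels of the ribosomal protein genes was not tested.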

How the data were processed

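Bulk RNA-seq of peritoneal macrophages was measured in 6 groups of 3 libraries (WT, K730R and K810R, each without LPS and after 6 h at 100 ng/ml), grouped by the sample labels. The authors deposited FPKM values per library and transcript event, of 20 kinds, normalized for length and library size. The processing notes name only the build hg18, a human build, whereas the coordinates match the mouse build GRCm38 (GENCODE vM21). The aligner and quantifier are not given in the sources used here. Events whose strand or position did not match their gene were dropped, with 5.98% of end FPKM (0.324% for the ribosomal protein genes). First-exon and last-exon FPKM were summed per gene and library, and the higher sum was used. Pseudogenes of any kind with such symbols number 290 in the annotation, and reads shared with them cannot be separated.

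The 9707 genes that reached 1 FPKM in 3 or more of the 18 libraries went into limma 3.58.1 (R 4.3.3) on log2(FPKM + 1), a pseudocount that understates the change of low genes. The fit used a mean-variance trend, p-values were adjusted by Benjamini-Hochberg, and calls needed an adjusted p below 0.01, as in the study's methods. The step was tested on simulated data. Summaries used pandas 2.3.3 under Python 3.11.15. The genes named are the 5 largest called changes in each direction per comparison (or, with no call, the 3 furthest from 0 each way), the highest members, members chosen by role and paralog pairs. Rps3a1, Rpl18, Rps24 and others named for spread, genes at p below 0.05 and Rps2 and Rpl6 were added after their values were seen. The members and lists were chosen with earlier results of these data known. Replicate numbers did not pair the libraries, since no pair of groups had every same-number correlation above 0.1. Alternatives covered pseudocount, filters, scaling, trend, library weights, replicate block, the value per gene and left-out libraries. Leaving out a replicate number from all groups at once, and keeping only genes whose ends were within 1.1 times, were added after seeing the data. A few genes that the rule names are not reported here.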

Additional observations from a re-analysis of the deposited data

How the results depend on the processing

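All calls of ribosomal protein genes after LPS were lower calls under every alternative run. With median-of-ratios scaling the calls were 5 (WT), 12 (K730R) and 3 (K810R), in place of 20, 29 and 14. As shares of the family these lay below those of all tested genes in WT (8.06% against 14.9%) and K810R (4.84% against 12.7%), where they lay above without that scaling, and above in K730R (19.4% against 15.1%). Over all alternatives run, the share lay below that of all tested genes in 16 of 24 in K810R, 8 of 24 in WT and 1 of 24 in K730R. In K810R these held the replicate block (16.1% against 18.6%), the fit with no intensity trend (17.7% against 19.7%), first or last exons alone (19.4% against 19.5% and 18.5% against 19.3%), genes with both ends within 1.1 times (23.3% against 24.6%), the higher filter (23% against 23.2%) and each fit without 1 library, and in WT they held 5 of 6 such fits. In WT 11 were called when its groups were compared alone (17.7% against 17% of all tested genes) and 31 at an adjusted p below 0.05 (50% against 33.8%). Leaving out 1 library gave 9 to 25 calls in WT, 21 to 32 in K730R and 4 to 10 in K810R. Leaving out a replicate number from all groups, added after seeing the data, gave 1, 7 and 19 in WT, 8 to 22 in K730R and 2 to 3 in K810R, where 2 libraries a group limit the test. Without replicates 1, 2 and 3 the WT shares were 1.61%, 11.3% and 30.6% against 12%, 13.2% and 20.2% of all tested genes. In K730R they were 12.9%, 35.5% and 35.5% against 13.4%, 16.2% and 19.4%, and in K810R 3.23% to 4.84% against 9.78% to 12.8%. Against WT, mock-treated K730R had 1 higher call from first exons alone. Mock-treated K810R had 2 higher calls with library weights and 2 at an adjusted p below 0.05. LPS-treated K810R had 2 with library weights, 1 at an adjusted p below 0.05, 0 to 2 when 1 library was left out (2 without WT LPS replicate 3) and 0 to 1 without a replicate number of all groups. No other alternative moved a count of calls by more than 1.5 times. Counts at an unadjusted p below 0.05 moved more: without 1 library that of LPS-treated K810R against WT was 6 to 26 in place of 20, and those of mock-treated and LPS-treated K730R 1 to 9 and 1 to 7 in place of 4 each. With library weights mock-treated K730R and K810R had 9 and 13 in place of 4 and 7, and LPS-treated K730R 10 in place of 4. Mock-treated K730R and K810R had 9 and 13, and LPS-treated K810R 13, when groups were compared alone. The interaction of K810R had 9 with library weights and 1 to 10 without 1 library in place of 2, and that of K730R 3 to 9 without 1 library in place of 5. Without a replicate number of all groups these counts reached from 0 to 33. All counts at this unadjusted p are given without the shares of all tested genes in the same fits, so they are not read as changes of the family. With first exons alone, Rpl11 reversed to 1.42 in WT and 0.0151 in K810R, and Rps10 to 0.36 in K810R, and both had more FPKM in last than in first exons (means of 173 against 121 for Rpl11 and 345 against 199.9 for Rps10). Replicate numbers paired no libraries (correlations of deviations from -0.32 to 0.099). With the replicate block 15, 29 and 10 genes were called after LPS and 0 in the other comparisons. The depth is unknown, so what it limits cannot be given.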
